A study of Rattus norvegicus with 15 samples.

Results

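Hspa5, Atf4 and Ddit3 are 3 genes of the endoplasmic reticulum (ER) stress response, read here by their Ensembl gene identifiers (ENSRNOG00000018294, ENSRNOG00000017801 and ENSRNOG00000006789) out of the 32545 gene rows of each table. Messenger RNA was counted in 15 libraries of Rat1a, an established rat fibroblast line (the labels class the cells as primary) grown attached to the dish in serum-containing medium. A line stably expressed an empty vector (EV), wild-type mouse MYC (WT), or mouse MYC in which arginine stood in place of 1 lysine, whose position gives the line its name (R149, R158 or R323). Each of the 5 lines had 3 replicates, and the labels name no stress-inducing agent. A construct was represented by a single stable line, so effects of the line and of its construct cannot be told apart. The p-values measure the spread between replicates of a line. The question was whether these stress genes differed in level when MYC, a transcription factor known to promote ribosome and protein synthesis, was added, and whether the lysine substitutions mattered for it.

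The ER folds secreted and membrane proteins, and a load of unfolded protein there is sensed by the membrane proteins IRE1, PERK and ATF6. Hspa5 encodes BiP, the abundant HSP70-type chaperone of the ER lumen that also holds the sensors inactive, and its RNA is a common readout of the ATF6 and XBP1 arms. Atf4 encodes a bZIP transcription factor of the PERK arm and of the wider integrated stress response, whose protein output is set to a large extent at translation, which mRNA counts do not measure. Ddit3 encodes CHOP, a C/EBP-family factor induced by ATF4 and linked to growth arrest and cell death under lasting stress.

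The 250 bases before the annotated start of each gene are shown because stress response elements and E-boxes are known to act in such regions. They are RefSeq sequences of the GRCr8 build, all on the plus strand, at chr3:38452766-38453015 for Hspa5, chr7:113684431-113684680 for Atf4 and chr7:65001445-65001694 for Ddit3. All 3 symbols were matched. Capitals mark matches to the motifs given after the sequences.
Hspa5: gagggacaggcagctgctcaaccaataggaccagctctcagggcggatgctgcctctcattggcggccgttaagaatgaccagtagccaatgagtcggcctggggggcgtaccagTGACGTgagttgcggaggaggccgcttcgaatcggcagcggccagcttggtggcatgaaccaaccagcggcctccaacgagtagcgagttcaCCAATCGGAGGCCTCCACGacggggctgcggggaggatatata
Atf4: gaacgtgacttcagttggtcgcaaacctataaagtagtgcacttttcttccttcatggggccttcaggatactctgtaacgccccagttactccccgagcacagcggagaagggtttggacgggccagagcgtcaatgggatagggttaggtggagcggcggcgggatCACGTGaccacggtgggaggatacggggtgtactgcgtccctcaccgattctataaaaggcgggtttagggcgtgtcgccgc
Ddit3: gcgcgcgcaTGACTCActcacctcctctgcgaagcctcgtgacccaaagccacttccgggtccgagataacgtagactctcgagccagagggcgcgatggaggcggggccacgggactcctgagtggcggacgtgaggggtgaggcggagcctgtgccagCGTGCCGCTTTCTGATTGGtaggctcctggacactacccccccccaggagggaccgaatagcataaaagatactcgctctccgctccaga

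Both strands were searched. The full ER stress element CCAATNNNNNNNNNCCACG, the site named for ATF6 together with NF-Y, was found in Hspa5 from 43 to 25 bases before the start, and in 0.0657% of the 33469 rat promoter windows of this length. A relaxed form, CCAATNNNNNNNNNNCACG, which the full form also fits, was in Hspa5 at the same place and in Ddit3 on the opposite strand from 90 to 72 bases before the start. It was in 0.173% of all windows and was chosen after the sequences had been seen. The E-box CACGTG, the motif bound by MYC with MAX among other factors, was in Atf4 from 82 to 77 bases before the start and not in the Hspa5 or Ddit3 windows. It was in 5.59% of all windows. The CRE core TGACGT was in Hspa5 (6.95% of windows) and the AP-1 motif TGACTCA in Ddit3 (4.05%). The C/EBP-ATF composite TGATGNAA, present in 3.4% of windows, was in none of the 3 windows. Bases further upstream were not searched, so a site there would be missed. A match describes the letters in the window and shows no binding.

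Libraries held between 13.3 and 109 megacounts. R149 replicate 1 stood apart, with 13676 genes detected when all libraries were thinned to 1 depth, against 14877 to 15635 in the other 14. The tables carry identifiers without names, so the level of the introduced Myc, the fibroblast markers and 110 further genes of the stress pathway were not analysed here. Libraries held 12696 to 83736 counts of Hspa5, 4017 to 34089 of Atf4 and 115 to 860 of Ddit3. Counting error alone was thus at most 0.887% for Hspa5 and 1.58% for Atf4, but 3.41% to 9.33% for Ddit3. In the RefSeq annotation of GRCr8, Ddit3 overlaps Mars1, the methionyl-tRNA synthetase gene on the opposite strand, and an uncharacterised gene, LOC134479709, on its own strand. The strand setting of the counting is not given in the sources used here, so reads of Mars1 or LOC134479709 within the Ddit3 row cannot be told apart from Ddit3 reads. Hspa5 and Atf4 overlap no other gene there.

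Of the 3 genes, only Ddit3 was called against EV. In either direction, 26.8% of all genes tested were called with WT, 38.5% with R149, 28.5% with R158 and 29.8% with R323. Ddit3 was lower in every MYC library than in any EV library, as were 14.2% of all genes tested. Its fall passed the test in WT, R149 and R158. Atf4 had a higher mean in each MYC line than in EV, by 1.21-fold to 1.41-fold, and no line passed the test. Hspa5 had a slightly lower mean in each MYC line, at 0.856 to 0.936 of EV, and no line passed either. All levels below are CPM, in which every library is brought to the same total, adjusted with edgeR's TMM factors. Values for different genes are not compared because they are not per length. The test was edgeR's quasi-likelihood test over 13676 genes with Benjamini-Hochberg adjustment, and calls required an adjusted p below 0.05.

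**Figure D1:**
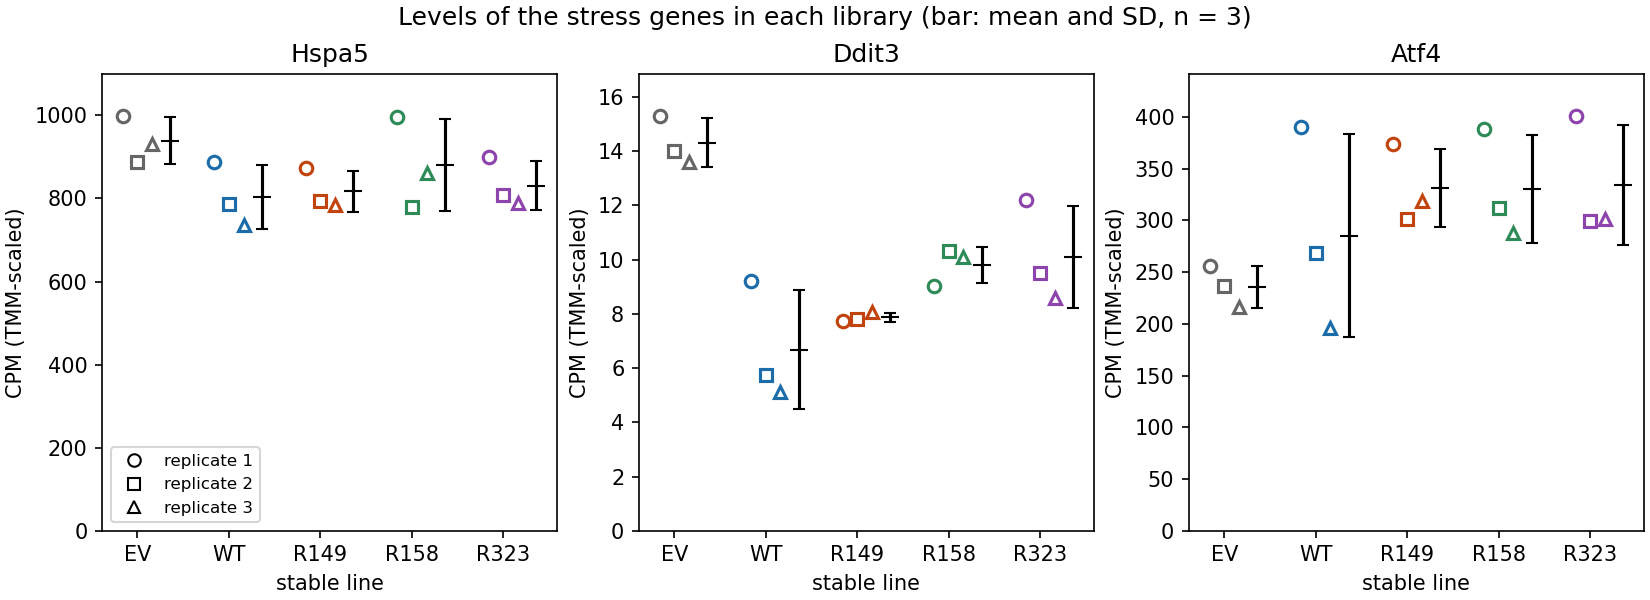
Level of Hspa5, Ddit3 and Atf4 in CPM (vertical axes from 0) in each library of the 5 lines; open symbols are replicates 1 to 3, and the black bar is the mean and SD over 3 libraries. The EV libraries of Ddit3, at 13.6 to 15.3 CPM, lie above all 12 MYC libraries, and replicate 1 is the highest Atf4 library of each line.

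Hspa5, the chaperone, was read at 999, 888 and 932 CPM in EV replicates 1 to 3, and at 888, 786 and 737 CPM in WT. The top WT library and the bottom EV library both lay at 888 CPM, and the ranges overlapped. In R149 the values were 874, 794 and 784 CPM, all below EV, in R158 they were 997, 780 and 861, and in R323 899, 808 and 788. R158 replicate 1 was as high as the EV libraries, and the ranges of R158 and R323 overlapped that of EV. In R149, 28% of all genes tested were likewise lower than EV without overlap.

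The mean of Hspa5 was highest in EV, at 939 ± 56.1 CPM (SD, n = 3), followed by R158 (880 ± 110), R323 (831 ± 59.1), R149 (817 ± 49.3) and WT (804 ± 76.9). Every neighbouring pair in this order overlapped. The log2 fold change against EV was -0.22 in WT (95% interval -0.46 to 0.01, edgeR adjusted p 0.143), -0.20 in R149 (-0.43 to 0.03, adjusted p 0.158), -0.10 in R158 (-0.33 to 0.14, adjusted p 0.54) and -0.18 in R323 (-0.41 to 0.06, adjusted p 0.243). The intervals allow a fall of up to 0.46 log2 units and, in R158, a rise of up to 0.14. Without R158 replicate 2 the R158 difference was -0.02. A fit with the replicate number as a block called Hspa5 in WT and R149 (edgeR adjusted p 0.0339 and 0.046). That fit called 36.4% and 48.2% of all genes, and whether the numbers pair libraries with those of EV was not settled. Of all genes tested, 31.2% had a lower fold change than Hspa5 in WT against EV, so its shift lay well inside the spread of the transcriptome. The biological coefficient of variation of Hspa5, the spread between replicates beyond counting error, was 10.3%, beside a median of 14.4% over genes.

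Atf4, the transcription factor of the PERK arm, was read at 256, 237 and 216 CPM in EV. In WT it ranged widely, at 390, 268 and 196 CPM in replicates 1 to 3, from above every EV library to below them. The mutant libraries were all above EV, at 374, 301 and 319 CPM in R149, 388, 312 and 288 in R158, and 401, 299 and 301 in R323. Such a rank above EV without overlap was shared by 26.4% of all genes tested with R149, 21.6% with R158 and 24.2% with R323. Replicate 1 was the highest Atf4 library in 5 of the 5 lines. The same held for Hspa5 in 5 lines and for Ddit3 in 3, while replicate 1 was the lowest Ddit3 library in 2. The share of all genes with such ranks was not computed.

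Mean Atf4 was 334 ± 58.1 CPM in R323, 331 ± 37.7 in R149, 330 ± 52.2 in R158, 285 ± 98.1 in WT and 236 ± 20.3 in EV (SD, n = 3), and every neighbouring pair in this order overlapped. Against EV the log2 fold change was 0.49 in R149 (95% interval 0.06 to 0.91, edgeR adjusted p 0.0651), 0.48 in R158 (0.05 to 0.90, adjusted p 0.0837) and 0.50 in R323 (0.07 to 0.92, adjusted p 0.0725). In WT it was 0.27 (-0.15 to 0.69, adjusted p 0.342). The intervals are not adjusted for the number of genes, which is why those of the mutants lie above 0 while the adjusted p misses the threshold. The share of all genes called higher than EV was 12.6% with WT and 18.2% with R149, and 14.4% and 14.1% with R158 and R323. Genes with a higher fold change than Atf4 made up 15.3% of those tested with R149, 15.1% with R158 and 13.7% with R323.

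WT replicates 1 and 3 weighed heavily on Atf4, in opposite directions. Without replicate 1 the WT difference from EV was -0.02 log2 units (adjusted p 0.945), and without replicate 3 it was 0.48 (adjusted p 0.0658), level with the mutants. The absence of either also narrowed the shared spread. Without replicate 1 the adjusted p against EV became 0.024 with R149, 0.0334 with R158 and 0.0235 with R323, and without replicate 3 it became 0.0325, 0.0446 and 0.0321, with nearly the same fold changes. Of all genes, 39.9%, 30.1% and 31.3% were called in these contrasts without replicate 1, and 37.3%, 27% and 28.8% without replicate 3. Fits of only the lines compared called Atf4 in these 3 mutants too, as they did 38.7%, 28.4% and 36.4% of all genes. So did a fit with the replicate number as a block, with 48.2%, 39% and 38.9% of all genes called. Whether the numbers pair libraries with those of EV was not settled. Without R149 replicate 1 the R149 difference was 0.38 (adjusted p 0.202). Without its own replicate 1, R158 differed from EV by 0.33 and R323 by 0.35 (edgeR adjusted p 0.288 and 0.25). Leaving out EV replicate 3 gave 0.41 for both R149 and R158 (edgeR adjusted p 0.198 and 0.247) and 0.44 for R323 (0.202). Of 23 alternative settings, 6 called Atf4 higher than EV in R323, as many in R149, and 5 in R158.

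Ddit3, the gene of CHOP, was read at 15.3, 14 and 13.6 CPM in EV and at 9.2, 5.74 and 5.11 CPM in WT. WT replicate 1 stood well above the other two WT libraries and still below every EV library. R149 was the most even line, with 7.75, 7.81 and 8.05 CPM, a spread smaller than the counting error of its libraries. R158 was read at 9.03, 10.3 and 10.1 CPM and R323 at 12.2, 9.5 and 8.58 CPM. All 12 MYC libraries thus lay below the 3 EV libraries, as they did for 14.2% of all genes tested.

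The fall passed the test in 3 of the 4 MYC lines. In WT the log2 fold change was -1.09 ± 0.19 (SE; 95% interval -1.50 to -0.68; edgeR adjusted p 0.000859), which is 0.469 of the EV level, and 14.1% of all genes were called lower in this comparison. R149 fell by 0.86 ± 0.19 to 0.55 of EV (edgeR adjusted p 0.00226, 20.2% of genes called lower). R158 fell by 0.54 ± 0.19 to 0.686 of EV (edgeR adjusted p 0.0444, 14.1% of genes called lower). In R323 the log2 fold change was -0.51 ± 0.19, or 0.703 of EV, with an edgeR adjusted p of 0.0541, while 15.7% of genes were called lower. At least 3 of the 4 lines called the same gene lower for 13.4% of all genes. These 4 comparisons share the EV libraries.

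In WT, 5.78% of all genes tested had a lower fold change than Ddit3, beside 13% with R149, 15.9% with R158 and 18.5% with R323. The call of R158 and the missed call of R323 both lay close to the threshold. Leaving out any of 9 single libraries, the 3 of EV and the 3 of R158 among them, raised the adjusted p of R158 above it, to at most 0.115. Without R149 replicate 1 the R149 fall kept its size, at -0.86 (adjusted p 0.00651). R323 was called in 10 of 23 alternatives, DESeq2 (adjusted p 0.0293) and limma-voom (0.0314) among them. In R323 against EV, DESeq2 called 32.8% of all genes and limma-voom 29.5%.

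**Figure D2:**
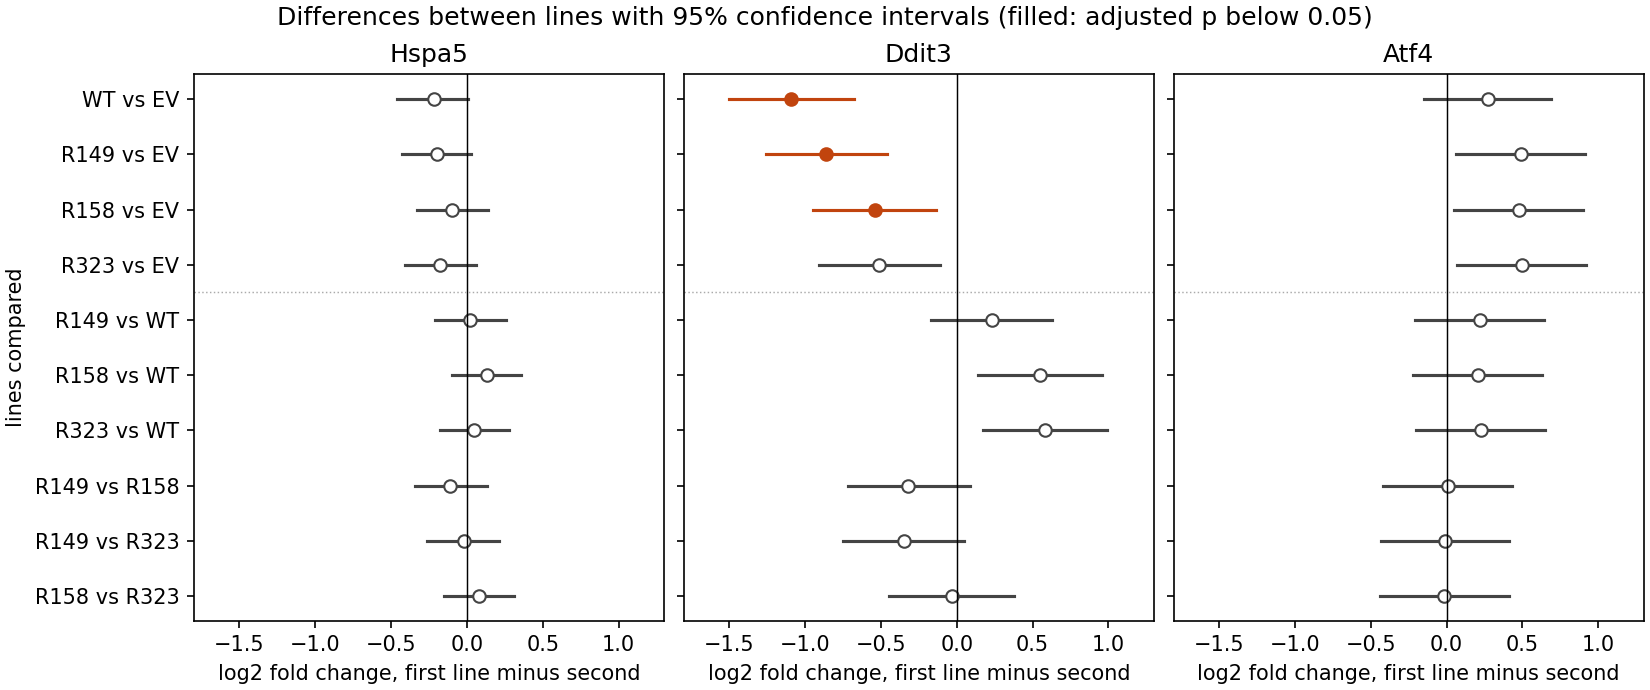
Log2 fold change of the first line against the second (horizontal axis) for the 10 pairs of lines, with 95% confidence intervals; filled points have an edgeR adjusted p below 0.05. The filled points are Ddit3 in WT, R149 and R158 against EV, at -1.09, -0.86 and -0.54.

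**Figure D3:**
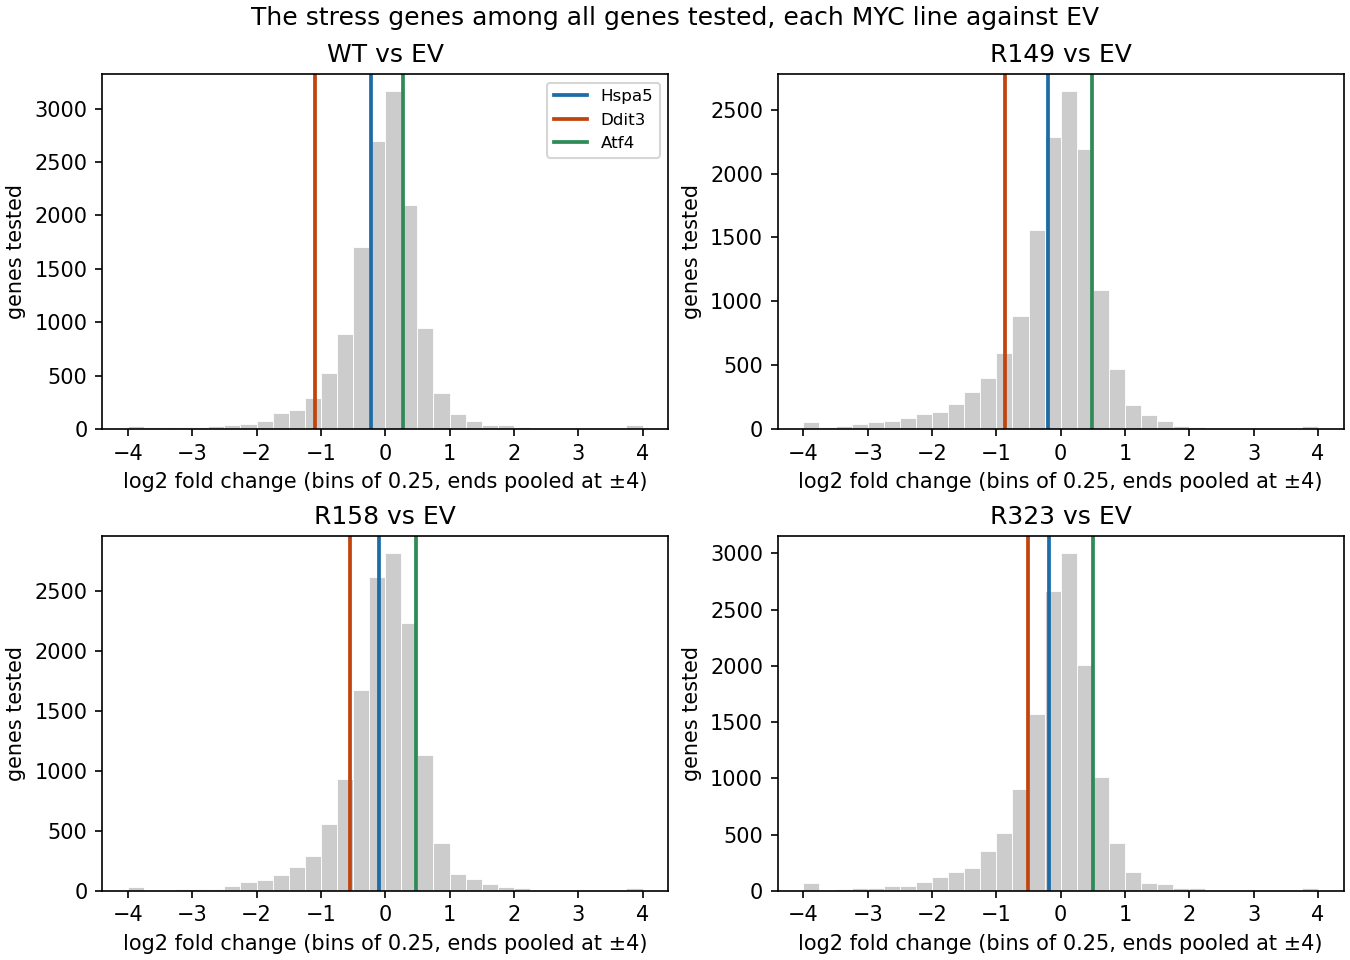
Number of genes tested (vertical axis) by log2 fold change against EV (horizontal axis, bins of 0.25) in each MYC line, with vertical lines for Hspa5, Ddit3 and Atf4. Ddit3 lies in the left flank in WT, at -1.09, and nearer the centre in R158 and R323, at -0.54 and -0.51.

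The means of Ddit3 followed an order of EV (14.3 ± 0.901 CPM), R323 (10.1 ± 1.87), R158 (9.79 ± 0.67), R149 (7.87 ± 0.158) and WT (6.68 ± 2.2; SD, n = 3). EV and R323 did not overlap, as for 25.6% of genes lower in R323 than in EV, nor did R158 and R149, whereas R323 with R158 and R149 with WT did. The difference between R149 and R158 was -0.32 log2 units (95% interval -0.72 to 0.09) with an edgeR adjusted p of 0.678, and 8.62% of genes were lower in R149 than in R158 without overlap. R149 and R323 did not overlap either, with -0.35 log2 units (-0.75 to 0.05, adjusted p 0.489) and 10.4% of genes lower without overlap.

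Comparisons of each mutant with WT asked whether a substitution altered the levels. The 3 mutant lines had more Ddit3 than WT on average, by 0.23 log2 units in R149 (95% interval -0.17 to 0.63, edgeR adjusted p 0.721), 0.55 in R158 (0.14 to 0.96, adjusted p 0.304) and 0.58 in R323 (0.17 to 0.99, adjusted p 0.262). None was called by edgeR, DESeq2 or limma-voom, with unadjusted edgeR p of 0.0126 in R158 and 0.00827 in R323, and ranges overlapped through WT replicate 1. Of all genes, 1.18% were called in R149 against WT, 0.6% in R158 and 0.892% in R323. Without WT replicate 1, and without the block, the difference was 0.84 in R158 (edgeR adjusted p 0.0185) and 0.89 in R323 (adjusted p 0.0104), both called. In R149 it was 0.52 (adjusted p 0.109). That fit called 1.5% of all genes in R158 against WT, 1.76% in R323 and 2.59% in R149. Without WT replicate 3 the differences shrank to 0.06 in R149, 0.38 in R158 and 0.43 in R323 (adjusted p 1, 0.859 and 0.675), and without WT replicate 2 the R149 difference was 0.13. These 3 comparisons share the WT libraries, so a single WT library moves all of them.

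Atf4 differed from WT by 0.22 log2 units in R149 (95% interval -0.21 to 0.64), 0.21 in R158 (-0.22 to 0.63) and 0.23 in R323 (-0.20 to 0.65), with edgeR adjusted p of 0.759, 0.741 and 0.963. Without WT replicate 1 these differences became 0.50, 0.49 and 0.52, none called. Without WT replicate 3 the differences in R149 and R158 were 0 and -0.01. Hspa5 differed from WT by 0.02 (-0.21 to 0.26), 0.13 (-0.10 to 0.36) and 0.05 (-0.18 to 0.28), with adjusted p of 0.968, 0.694 and 0.996. Taken singly, the Hspa5 intervals reached at most 0.36 log2 units between mutant and WT, while those of Atf4 reached 0.65. They are not adjusted for the number of comparisons and share the WT libraries.

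Between mutants, edgeR called 0 of the 3 genes in each of the 3 pairs, and 0 had an unadjusted p below 0.05. DESeq2 and limma-voom called 0 as well. The share of all genes called was 1.27% for R149 against R158, 1.07% for R149 against R323 and 0.936% for R158 against R323. Atf4 differed by 0.01 log2 units between R149 and R158 (95% interval -0.42 to 0.43), by -0.01 between R149 and R323 (-0.43 to 0.41) and by -0.02 between R158 and R323 (-0.44 to 0.41). Hspa5 differed by at most 0.11 in size, with R149 below R158 by -0.11 (-0.34 to 0.13).

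Because Ddit3 is a target of ATF4, the counts of both were also set against each other within a library, which needs no scaling between libraries. The ratios were added after the levels had been seen. EV libraries held 5.99, 5.9 and 6.32 Ddit3 counts per 100 Atf4 counts. WT libraries held 2.36, 2.14 and 2.6, and R149 libraries 2.07, 2.59 and 2.52. R158 libraries held 2.33, 3.3 and 3.49, and R323 libraries 3.04, 3.17 and 2.85. All 12 MYC libraries lay below EV, as did the ratio to Atf4 of 13% of the 12937 other genes with counts in every library, and the 3 WT libraries, which differed widely in each gene alone, were close together in this ratio.

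On the log2 scale the ratio of Ddit3 to Atf4 stood at -4.04 ± 0.05 in EV and -5.41 ± 0.14 in WT (SD, n = 3), a difference of -1.36 with an exact two-sided permutation p of 0.1. For R149 the difference from EV was -1.35, for R158 -1.02 and for R323 -1.01, each with an exact permutation p of 0.1. That is the smallest p that 3 libraries against 3 allow, and the adjusted value over the 30 comparisons of ratios was 0.2. R323 lay above WT by 0.35 without overlap (exact permutation p 0.1, adjusted 0.2), as for 0.41% of these genes, and R158 by 0.34 with overlap (exact permutation p 0.3, adjusted 0.45), whereas R149 and WT differed by 0.02 (exact permutation p 1). R158 replicate 1, at 2.33 per 100, lay among the WT libraries. The share of 0.41% depends on Atf4 itself, which ranged from 196 to 390 CPM in WT. The share given above for the MYC libraries against EV depends on Atf4 too, whose mean was higher in each MYC line than in EV. R149 and R323 differed by -0.34 without overlap. In the ratio of Ddit3 to Hspa5, R323 and WT (0.58) and R149 and R323 (-0.32) did not overlap either. Each had an exact permutation p of 0.1, adjusted 0.2, and the share of genes alike was not computed.

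**Figure D4:**
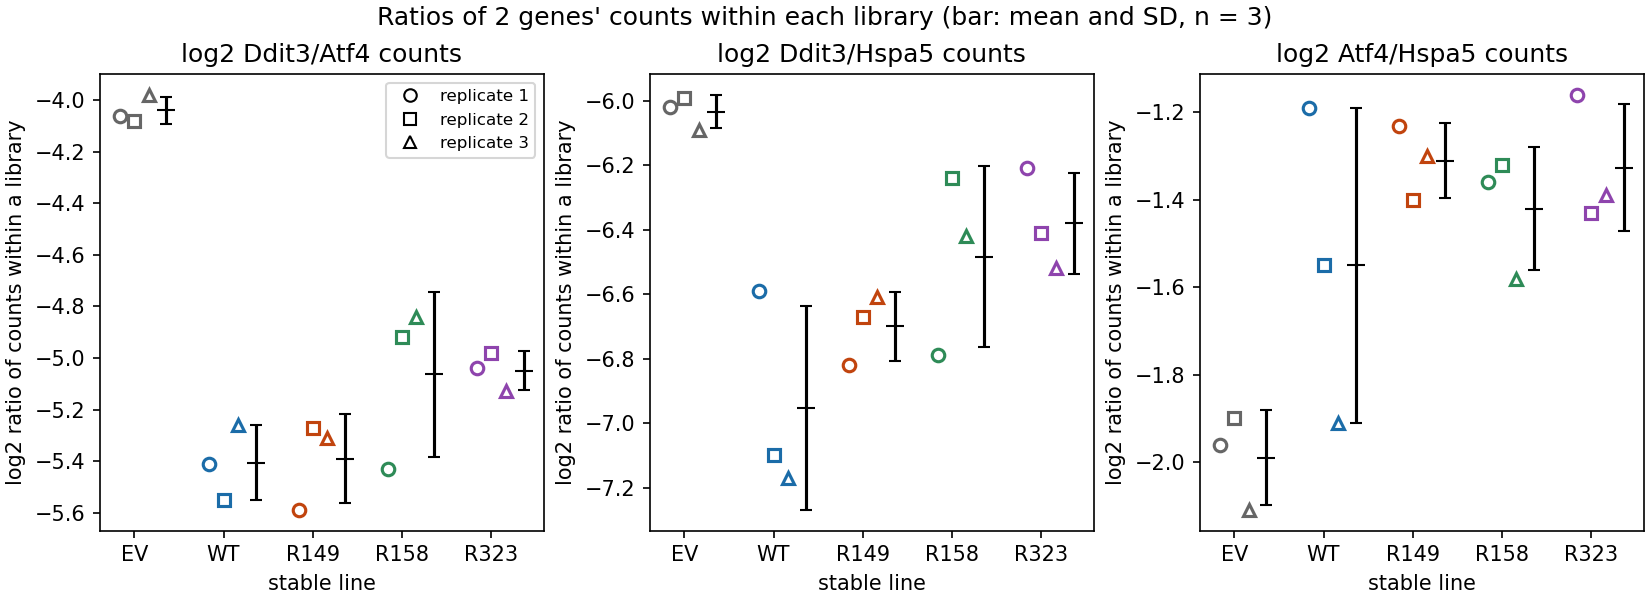
Log2 ratio of the counts of 2 genes within each library (vertical axes, which do not start at 0) by line; open symbols are replicates and the black bar is the mean and SD over 3 libraries. In the left panel EV, at -4.04 on average, is separate from all MYC lines, whose means lie between -5.41 and -5.05.

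Ddit3 was also lower relative to Hspa5. EV libraries held 1.54, 1.58 and 1.46 Ddit3 counts per 100 Hspa5 counts, and WT libraries 1.04, 0.73 and 0.694. The log2 difference from EV was -0.92 for WT and -0.66 for R149, then -0.45 with R158 and -0.34 with R323, none overlapping EV, each with an exact permutation p of 0.1. All 12 MYC libraries lay below EV in their ratio to Hspa5 for 5.88% of the other genes. This share, like those given next for Atf4 to Hspa5, depends on Hspa5 itself, whose mean was lower in each MYC line than in EV. The ratio of Atf4 to Hspa5 was higher than in EV without overlap in R149 (by 0.69), R158 (0.57) and R323 (0.67), each with an exact permutation p of 0.1, and so was that of 40.5%, 27.1% and 36.5% of the other genes. In WT it overlapped EV, with a difference of 0.44 and an exact permutation p of 0.2, since WT replicate 3 held 26.6 Atf4 counts per 100 Hspa5 counts, within the EV values of 25.7, 26.7 and 23.1.

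Among 12023 other genes with a mean of at least 1 CPM, the one whose log2 level followed Ddit3 most closely over the 15 libraries was ENSRNOG00000008116, with a Pearson r of 0.911. Its mean was 9.91 ± 1.41 CPM for EV (SD, n = 3), 1.64 ± 0.7 for WT and 1.64 ± 0.103 for R149, while R158 had 3.51 ± 0.841 and R323 3.09 ± 0.466. It shared with Ddit3 a higher mean in R158 and R323 than in WT and R149. For Hspa5 the closest gene was ENSRNOG00000009037, with a Pearson r of 0.944, at 73.5 ± 14.6 CPM for EV, 41.8 ± 16.1 for WT and 44.6 ± 7.24 for R149, with 61.9 ± 13.6 in R158 and 46.8 ± 8.65 in R323. These coefficients are a description: they were picked as the highest of many, and the separation of EV from the MYC libraries enters them.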

How the data were processed

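The authors deposited raw counts per Ensembl gene, whole numbers with no normalization, in 1 table per library. TopHat2 2.1.0 and the genome build Rnor_6.0 are named in the submitters' processing notes; libraries came from a stranded dUTP mRNA kit, per the labels' protocols. How reads were counted, with which strand setting and annotation, is not given in the sources used here.

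Tests used edgeR 4.0.16 (R 4.3.3): filterByExpr (minimum count 10), TMM factors, and 1 quasi-likelihood fit of all 15 libraries with the line as the only term. Each of 10 contrasts was adjusted by Benjamini-Hochberg over 13676 genes, among them all 3 members. SE is the fold change over the root of the F statistic. Libraries had 13303631 to 108933235 counts, and no replicate pair agreed within counting noise (chi-square per degree of freedom 4.24 to 81.8). The fit was tested on simulated counts. Alternatives were DESeq2 1.42.0, limma-voom (limma 3.58.1), other scaling, no filter, a replicate block, fewer lines and left-out libraries.

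Replicate numbers come from the labels. Deviations of equal-numbered libraries correlated above 0.1 in every pair for the 6 contrasts among MYC lines (0.127 to 0.54), not for those with EV (lowest 0.00523). Against EV the correlations were 0.0986 to 0.208 in WT and 0.0843 to 0.176 in R158. In R149 and R323 they were 0.0174 to 0.0707 and 0.00523 to 0.0481.

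The members, lists and motifs were chosen with earlier results of these data known. The reference gene table held 0 Ensembl identifiers, so the pathway list (110 genes) and the marker lists (32 genes) were not analysed here. The members' symbols came with their identifiers. The gene most alike was named for Hspa5 and Ddit3 only, the rule for data without symbols.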

Additional observations from a re-analysis of the deposited data

How the results depend on the processing

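Of 690 values (30 results under 23 alternatives), 618 kept direction and side of the threshold. Ddit3 in WT and R149 against EV was called in 23 of 23. Counts over the pathway list were not run. Ddit3 in R323 against EV became called at -0.52 with DESeq2 size factors, -0.53 with library size alone, -0.52 with DESeq2, -0.53 with limma-voom and -0.51 with only the lines compared. Of all genes, 29.6%, 29.4%, 32.8%, 29.5% and 36.4% were called in R323 against EV in these settings, in that order. Hspa5 in R149 against EV was called at -0.26 with library size alone, as were 37.4% of all genes. In that setting Hspa5 in R149 against WT turned to -0.01. With no filter, Ddit3 in R158 against EV (-0.55) lost its call, and Atf4 gained one in R149 (0.50) and R323 (0.51). Without the filter, 17.6% of all genes were called against EV in R158, 25.5% in R149 and 19.1% in R323. With only the lines compared Atf4 was called in R149 (0.49), R158 (0.47) and R323 (0.50), as were 38.7%, 28.4% and 36.4% of all genes. Ddit3 in R158 against R323 turned to 0.01 with limma-voom.

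With the replicate number as a block, Hspa5 was called against EV in WT (-0.23) and R149 (-0.20), and Ddit3 in R323 (-0.52). Atf4 was called in R149 (0.48, edgeR adjusted p 0.00428), R158 (0.47, adjusted p 0.00746) and R323 (0.49, adjusted p 0.00533). Of all genes, 36.4% were called against EV in WT, 48.2% in R149, 39% in R158 and 38.9% in R323 with the block. The block changed no call of the 3 genes among MYC lines. Against EV equal-numbered libraries correlated less, and whether the numbers pair them was not settled.

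With replicates 2 and 3 alone, added after the data were seen, Hspa5 in WT (-0.26), Ddit3 in R323 (-0.62) and Atf4 in R149 (0.44), R158 (0.40) and R323 (0.40) were called against EV. Ddit3 was then called against WT in R149 (0.54), R158 (0.90) and R323 (0.73). The same fit called 9.59% of all genes for R149 against WT, beside 1.18% in the main fit. For R158 the shares were 7.22% and 0.6%, and for R323 6.7% and 0.892%. Against EV the fit called 37.3% of all genes with WT, 46.9% with R149, 41.8% with R158 and 42.8% with R323. There 3 uncalled differences turned: Ddit3 in R158 against R323 (0.17), and Atf4 against R323 in R149 (0.05) and R158 (0).

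Leaving out single libraries gave ranges, against EV, of -0.59 to -0.50 for Ddit3 in R158 and -0.66 to -0.40 in R323, and for Atf4 of -0.02 to 0.48 in WT, 0.38 to 0.54 in R149, 0.33 to 0.56 in R158 and 0.35 to 0.58 in R323. Against WT they were 0.38 to 0.84 for Ddit3 in R158 and 0.43 to 0.89 in R323, 0 to 0.50 for Atf4 in R149 and -0.01 to 0.49 in R158, and -0.05 to 0.09 for Hspa5 in R149 and -0.01 to 0.13 in R323. Between R149 and R158 Atf4 ranged from -0.09 to 0.14. Between R149 and R323 it ranged from -0.12 to 0.13, and Hspa5 from -0.09 to 0.02. Between R158 and R323 the ranges were -0.17 to 0.12 for Atf4, -0.03 to 0.16 for Hspa5 and -0.16 to 0.10 for Ddit3. For the within-library ratios, Ddit3 to Hspa5 in R158 against WT moved to 0.80 with replicates 2 and 3 alone. Other than where stated, the cause of these shifts was not tested.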
